A study of Mus musculus with 30 samples.

Results

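The comparison set livers of female mice that received both chronic restraint stress (CRS) and recombinant acyl-CoA-binding protein (ACBP, encoded by Dbi and also called diazepam-binding inhibitor) against livers of mice that received neither. Its members were the 5 libraries labelled for both treatments (CRS+ACBP) and the 5 labelled PBS, 10 of the 30 libraries of the series, chosen by these labels alone. All mice were wild-type C57BL/6J females, 8 weeks old when a subcutaneous osmotic pump was implanted. The pump held ACBP at 2.5 mg/mL in the CRS+ACBP and ACBP groups, and the labels describe the alternative filling as PBS. CRS began 48 h after implantation. The labels give the letters CRS, read here as chronic restraint stress from what is known of the study, which used restraint and cisplatin as models of anorexia. 2 further groups of 5 libraries, CRS without ACBP and ACBP without CRS, were set beside the comparison, and the cisplatin groups were not used. The labels give neither food intake, body weight nor the day or hour of collection, and hold no group on restricted food. Restraint and eating less therefore cannot be told apart here. No source says that each library came from a different animal, so the p-values measure only the spread between libraries.

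ACBP binds long-chain acyl-CoA esters inside cells, and once released it acts as a peptide that stimulates feeding. Restraint stress activates the hypothalamus-pituitary-adrenal axis, and the liver answers stress and inflammatory cytokines with acute phase proteins, which hepatocytes secrete under control of STAT3, C/EBP and NF-kB. The mouse liver also differs between the sexes: the pulsatile growth hormone of males and the more continuous growth hormone of females, acting through STAT5, maintain separate sets of P450 enzymes, sulfotransferases, carriers and major urinary proteins.

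The 10 libraries held 15147974 to 17245912 reads on genes. In every library Xist had at least 10968 reads and the 4 Y-linked genes looked at had 0, as the label of female mice says. The hepatocyte marker genes summed to 77880 to 105400 CPM (counts scaled to library size, as throughout) in PBS and to 103000 to 113000 CPM in CRS+ACBP. CRS+ACBP replicate 5 stood apart in its mitochondrial transcripts, which took 15.3% of its reads on genes against 4.73% to 7.84% in the other 4. Replicate 1 of both groups stood apart in Arntl, the clock activator, with 5.16 CPM in PBS and 20.5 CPM in CRS+ACBP against 0.424 to 1.35 CPM in the remaining 8 libraries. The hour of collection was not given, and the part of this difference in the results was not tested beyond fits without these libraries. Transcripts of skeletal muscle were abundant in PBS replicate 2 and in CRS+ACBP replicates 3 and 4: the 22 muscle markers summed to 12580 CPM, 2948 CPM and 2470 CPM there, and to between 49.5 and 786.7 CPM in the other 7.

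Of 14845 genes tested, 598 (4.03%) differed between CRS+ACBP and PBS at an adjusted p under 0.05 in edgeR's quasi-likelihood test. Of these, 280 rose (1.89% of the genes tested) and 318 fell (2.14%), and 93 of the rises and 77 of the falls were at least 2-fold. The groups did not overlap for 1094 genes (7.37%, 3.5% higher and 3.87% lower), among them 491 of the 598. The count rested on single libraries. It fell to 57 without PBS replicate 5, 123 without PBS replicate 4, 123 without CRS+ACBP replicate 2, 145 without PBS replicate 1, 191 without CRS+ACBP replicate 1, 248 without CRS+ACBP replicate 3 and 331 without PBS replicate 3, and it rose to 1589 without CRS+ACBP replicate 5. Without both libraries high in Arntl it was 74, of which 67 were among the 598, and without the 3 libraries rich in muscle transcripts it was 181. Of the 107 called genes followed through the alternative fits, 25 were called without both libraries high in Arntl. All 107 kept their direction there. This says little, because they were chosen as called genes and the fit reuses most of the same libraries. Dbi itself, the gene of the infused protein, stood at 519, 537, 754, 706 and 562 CPM in PBS and at 1024, 718, 779, 787 and 529 CPM in CRS+ACBP. The groups overlapped, and the difference of 0.32 ± 0.18 on the log2 scale (standard error, as for every log2 fold change below) did not pass the test (adjusted p = 0.288).

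Many of the male-high liver genes, a list of genes known to be higher in males, rose in these females. Of 30 members 25 could be tested, 19 rose and none fell. All 25 had positive log2 fold changes, with a median of 1.27 against -0.02 over all genes. A member near 0 CPM in PBS, such as Hsd3b5, passed the filter on low counts only through its treated libraries. Its positive sign was fixed by that. The sign count and the median therefore rest in part on the filter, which 21 members passed in ACBP against PBS. The groups did not overlap for 15 of the 19, a share like that among all called genes (491 of 598). Slco1a1 (chr6:141907282-141946962, mm10, minus strand), an organic anion uptake carrier of the hepatocyte, stood at 6.19, 17.1, 11.8, 16.8 and 7.40 CPM in PBS and at 164, 98.5, 97.6, 77.6 and 140 CPM in CRS+ACBP. Its lowest treated library was more than 4 times its highest control, the log2 fold change was 3.28 ± 0.31 (adjusted p = 0.000682), and the call was kept in each of 21 alternative fits. Hsd3b5, a steroid reductase of the male liver, was between 0.0607 and 0.805 CPM in PBS and reached 15.9, 5.26, 5.97, 1.57 and 15.3 CPM in CRS+ACBP, a 21.5-fold rise (log2 4.43 ± 0.72, adjusted p = 0.0135). Serpina1e, a secreted protease inhibitor of the alpha-1-antitrypsin family, went from 5.64, 68.7, 17.9, 65.1 and 25.9 CPM to 651, 1182, 354, 195 and 904 CPM (log2 4.16 ± 0.68, adjusted p = 0.0132).

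The other male-high genes covered steroid hydroxylation, urinary pheromone carriers and fatty acid handling. Cyp7b1, which hydroxylates oxysterols, rose 2.49-fold, from 4.13 to 10.02 CPM in PBS to 14.1 to 26.3 CPM in CRS+ACBP. Nudt7, a peroxisomal hydrolase of coenzyme A, had all 5 treated libraries between 168 and 220 CPM and all 5 controls between 69.8 and 102 CPM (log2 1.05 ± 0.14, adjusted p = 0.00690). Elovl3, a fatty acid elongase, rose 3.45-fold from a PBS mean of 1.24 ± 0.763 CPM (SD, n = 5). Selenbp2, a selenium-binding protein, was 34.3, 26.8, 43.3 and 34.7 CPM in 4 treated libraries and 182 CPM in CRS+ACBP replicate 5, against 11.1 to 14.9 CPM in PBS. Among major urinary protein genes, Mup3 rose from a PBS mean of 1613 ± 378 CPM to 3175 ± 765 CPM, Mup20 (darcin) rose 2.48-fold, and Mup11 and Mup14, which are in no list, rose by 2.92 ± 0.58 and 2.34 ± 0.43 on the log2 scale. Mup genes are near-identical copies of each other, so reads may have been split between them. Mup1 was 0.303 to 3.50 CPM in PBS and 2.11 to 7.53 CPM in CRS+ACBP and did not pass the test (adjusted p = 0.0664). The count of 19 fell to 4 without PBS replicate 5, 6 without PBS replicate 1 and 7 without PBS replicate 4. It was 9 without CRS+ACBP replicate 1, 10 without CRS+ACBP replicate 2 and 11 without PBS replicate 3. Without both libraries high in Arntl it was 4. The list's median was between 1.02 and 1.48 over all alternatives. These fits share most of their libraries, and nearly all keep a filter on low counts, so this range is no separate support.

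**Figure D1:**
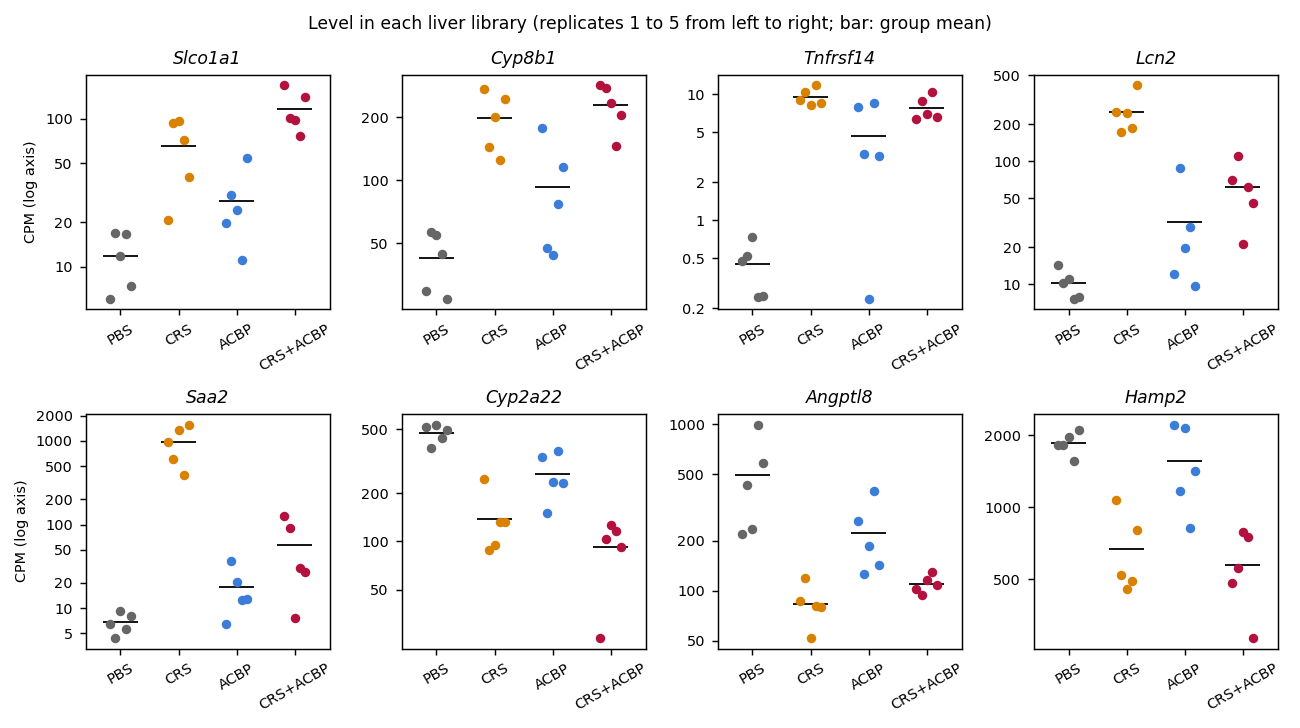
Level of 8 genes in each liver library of the PBS, CRS, ACBP and CRS+ACBP groups, in CPM on a log axis scaled over all 30 libraries. Points are libraries and bars are group means. For Slco1a1, Cyp8b1 and Tnfrsf14 every CRS+ACBP library lies above every PBS library, for Cyp2a22, Angptl8 and Hamp2 every one lies below, and for Saa2 the lowest CRS+ACBP library lies within the PBS range.

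The female-high genes did not move one way. Of 29 tested, 4 rose, 4 fell and 21 did not pass the test, and the median log2 fold change was -0.22. Hamp2, a hepcidin gene, fell from 1855, 1837, 1963, 1569 and 2105 CPM to 466, 545, 787, 759 and 283 CPM (log2 -1.71 ± 0.24, adjusted p = 0.00690). Hao2, a hydroxyacid oxidase, fell 2.99-fold, the sulfotransferase gene Sult2a2 2.47-fold and the P450 gene Cyp2b13 1.70-fold, each with groups that did not overlap. Against these, A1bg (alpha-1B-glycoprotein) rose from 18.3, 36.4, 15.1, 129 and 5.28 CPM to 451, 928, 228, 145 and 310 CPM. The list's rises numbered 2 without PBS replicate 1 or 3 or CRS+ACBP replicate 1 or 2, and its falls 1 without PBS replicate 1, 4 or 5 or CRS+ACBP replicate 2 and 2 without PBS replicate 3. The spread of A1bg within PBS was more than 20-fold, and its call (log2 3.33 ± 0.78, adjusted p = 0.0384) was lost in 11 of 21 alternatives. Sult3a1, another sulfotransferase gene, rose 3.30-fold, Cyp2c69 rose from a PBS mean of 258 ± 66.3 CPM to 745 ± 245 CPM, and Cyp2c40 rose 2.29-fold. Cux2, a repressor known to be restricted to female liver, was 212 to 282 CPM in PBS, 112 to 139 CPM in 4 CRS+ACBP libraries and 17.99 CPM in CRS+ACBP replicate 1. The groups did not overlap for Cux2, but Cux2 did not pass the test (log2 -1.32 ± 0.38, adjusted p = 0.0673). Sult2a1 likewise went from 186 to 317 CPM to 6.34 to 159 CPM without passing (adjusted p = 0.0680).

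Of 20 growth hormone signalling genes 1 rose, Lifr, the leukaemia inhibitory factor receptor (log2 0.73 ± 0.17, adjusted p = 0.0386), and none fell. Since 1.89% of all genes tested rose, a count of 1 says little about the list. Lifr was not called without any 1 PBS library, or without CRS+ACBP replicate 1 or 2. Igf1 was 692 to 943 CPM in PBS and 756 to 1450 CPM in CRS+ACBP (adjusted p = 0.186). The STAT5 targets Socs2 and Cish varied widely among the treated libraries. Socs2 was 12.9, 45.6, 33.1, 74.4 and 106 CPM there against 23.5 to 47.8 CPM in PBS, and Cish was 2.96, 19.6, 28.5, 27.4 and 47.7 CPM against 30.6 to 64.1 CPM. CRS+ACBP replicate 1 was the lowest library for both, and neither gene passed the test (adjusted p = 0.517 and 0.365).

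**Figure D2:**
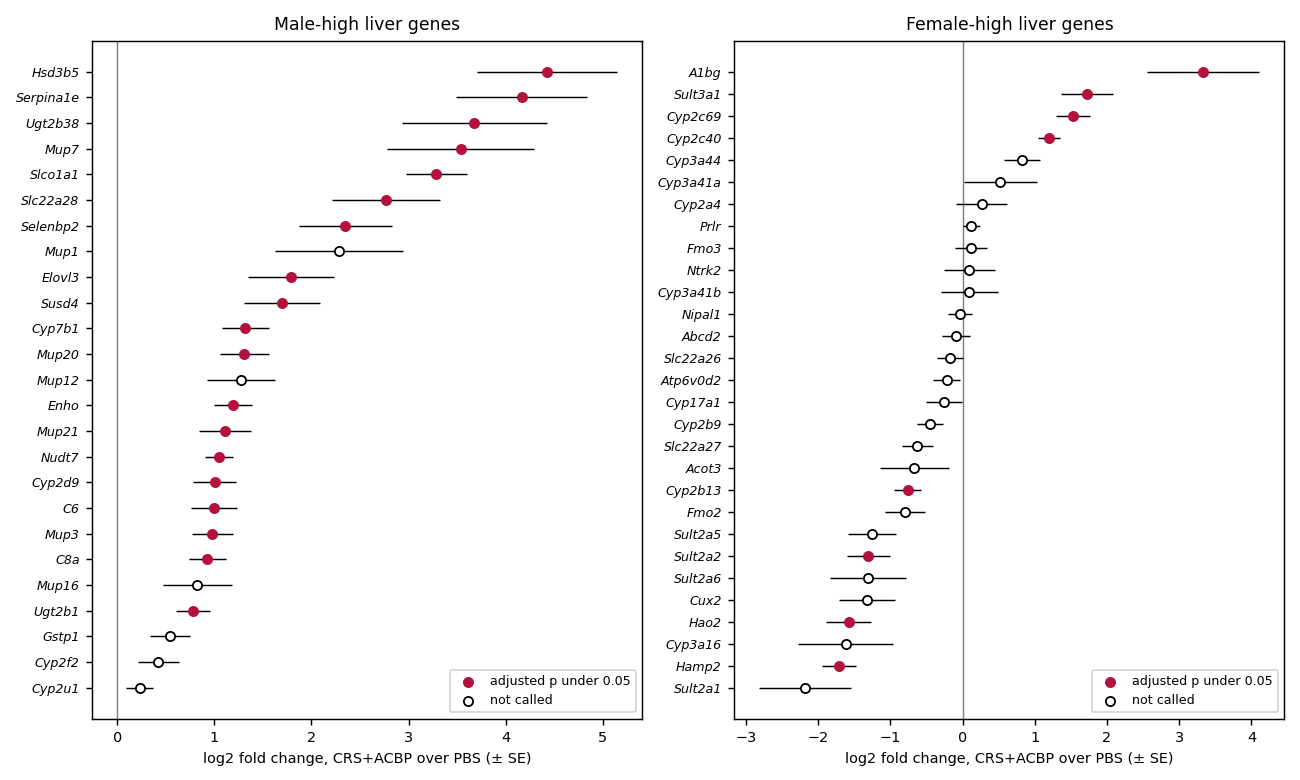
Log2 fold change (CRS+ACBP over PBS) of the 25 tested male-high and 29 tested female-high liver genes, with standard errors as bars and filled points for adjusted p under 0.05. All 25 male-high points lie above 0 and 19 are filled, while the female-high points lie on both sides with 4 filled on each.

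Acute phase genes were the other group with many rises: 11 of 30 tested rose, 1 fell, and the median log2 fold change was 0.48. The serum amyloid A genes Saa1 and Saa2 rose most. Saa1 stood at 11.3, 10.3, 14.5, 8.48 and 10.1 CPM in PBS and at 471, 252, 13.3, 92.2 and 86.3 CPM in CRS+ACBP (log2 4.07 ± 0.71, adjusted p = 0.0154). Saa2 stood at 6.49, 4.43, 9.16, 5.70 and 8.02 CPM in PBS and at 123, 88.2, 7.52, 31.0 and 26.6 CPM in CRS+ACBP (log2 3.03 ± 0.59, adjusted p = 0.0228). Saa1 was not called without PBS replicate 5, nor Saa2 without PBS replicate 1, 4 or 5 or CRS+ACBP replicate 2. For both genes 4 treated libraries were above all controls, and CRS+ACBP replicate 3 lay inside the PBS range. The neighbouring genes encode near-identical secreted proteins of high-density lipoprotein, and their promoters are shown because they moved together here and in the comparisons with CRS. The sequences are RefSeq's on GRCm38.p6. The one for Saa1 runs up to the start of transcription. The one for Saa2 stops short of RefSeq's start, because the bases next to it lie in an annotated exon and are not shown. The letters of a C/EBP match are in capitals: Saa1 at chr7:46742981-46743230 on the minus strand (250 bases) and Saa2 at chr7:46751583-46751789 on the plus strand (207 bases), each 5′ to 3′.
Saa1: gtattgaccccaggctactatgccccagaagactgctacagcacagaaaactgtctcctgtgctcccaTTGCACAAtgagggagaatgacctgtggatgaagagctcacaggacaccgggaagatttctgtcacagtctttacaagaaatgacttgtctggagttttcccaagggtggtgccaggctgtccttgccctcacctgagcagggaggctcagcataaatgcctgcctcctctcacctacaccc
Saa2: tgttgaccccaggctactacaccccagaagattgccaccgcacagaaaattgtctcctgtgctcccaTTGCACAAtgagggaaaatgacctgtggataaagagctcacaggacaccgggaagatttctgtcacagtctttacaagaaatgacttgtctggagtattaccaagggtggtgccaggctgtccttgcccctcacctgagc
The 2 sequences were identical at 195 of 206 aligned positions (94.66%). The C/EBP motif searched was TTGCNNAA, on both strands, in the 250 bases before RefSeq's start of each gene, a longer window than the sequence shown for Saa2. It matched at positions -182 to -175 before the start of Saa1 and at -183 to -176 before that of Saa2, and 9.5644% of 32851 mouse promoters hold it in a window of that length. The motifs GGNNTTTCC (NF-kB, in 4.9283% of promoters), TTCNNNGAA (STAT, 7.0196%), AGAACA (glucocorticoid receptor monomer site, 16.0847%) and CACGTG (E-box, 6.0211%) were not found in the 250 bases of either gene.

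Among the other secreted acute phase proteins, Lcn2 (lipocalin 2, which binds bacterial siderophores) rose from 14.6, 10.2, 10.9, 7.68 and 7.90 CPM to 68.6, 107, 21.1, 62.2 and 45.6 CPM. The groups did not overlap and the log2 fold change was 2.57 ± 0.35 (adjusted p = 0.00690). Of the orosomucoid genes, whose products carry lipophilic drugs and hormones in plasma, 2 rose, Orm2 from 31.8 to 72.7 CPM to 98.5 to 332 CPM and Orm1 from 590 to 810 CPM to 1112 to 1737 CPM. Orm3 had means of 24.6 CPM in PBS and 17.6 CPM in CRS+ACBP and did not pass the test (adjusted p = 0.370). Serpina3k, a kallikrein-binding protease inhibitor that overlaps Serpina3m on the same strand, went from 1756, 2250, 1918, 2203 and 1030 CPM to 6867, 7247, 4126, 4624 and 5457 CPM (log2 1.63 ± 0.23, adjusted p = 0.00690). Hpx (hemopexin, which binds free haem) rose 1.65-fold and Crp (C-reactive protein) 1.63-fold, both with overlapping groups. Lrg1, a leucine-rich glycoprotein, rose 2.33-fold, Apcs (serum amyloid P, the pentraxin that responds most in mice) 2.14-fold and Hp (haptoglobin, which binds free haemoglobin) 1.61-fold. CRS+ACBP replicate 3 was the lowest treated library for 9 of the 11 genes and replicate 1 the highest for 6. Hamp, the hepcidin gene, was the member that fell and is given with the iron genes. The count of 11 was 4 without PBS replicate 5, 6 without PBS replicate 1, PBS replicate 4 or CRS+ACBP replicate 2, and 4 without both libraries high in Arntl.

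Cytokine signalling genes were counted separately. In the list of IL-6, IL-1 and STAT3 signalling, 1 of 28 tested genes rose (Lifr) and 1 fell, and the median log2 fold change was -0.25. Such counts are near the shares over all genes tested, 1.89% risen and 2.14% fallen, and say little about the list. The gene that fell was Nfkbiz, a nuclear modulator of NF-kB target genes, from 23.01 to 31.9 CPM to 13.4 to 18.3 CPM (log2 -0.78 ± 0.13, adjusted p = 0.0148). Complement genes rose in part: 6 of 25 rose, none fell, and the median was 0.32. They included C3, the central component (PBS mean 3506 ± 256 CPM, CRS+ACBP 5843 ± 1239 CPM). Of the others, 4 encode parts of the membrane attack complex. C8b stood at 36.5, 45.7, 39.7, 43.3 and 25.3 CPM in PBS and at 208, 136, 112, 77.5 and 119 CPM in CRS+ACBP (log2 1.77 ± 0.24, adjusted p = 0.00690), C9 rose 2.01-fold, C6 1.99-fold and C8a 1.903-fold. C6 and C8a are also on the male-high list. The count of 6 was 2 without PBS replicate 1, PBS replicate 5 or CRS+ACBP replicate 2, and 3 without PBS replicate 4.

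Bile acid synthesis genes changed at single steps. Cyp8b1 (chr9:121914356-121916305, minus strand), the sterol hydroxylase that directs synthesis to cholic acid, stood at 29.9, 56.6, 55.0, 44.6 and 27.1 CPM in PBS and at 275, 268, 232, 147 and 204 CPM in CRS+ACBP. Every treated library was more than 2 times the highest control, and the log2 fold change was 2.40 ± 0.24 (adjusted p = 0.00102). With Slco1a1, Cyp7b1 and Amacr, a racemase of side-chain shortening that rose 1.38-fold, 4 of 26 tested genes of bile acid synthesis and transport rose, none fell, and the median was 0.08. The count of rises was 2 without PBS replicate 5 and 2 without both libraries high in Arntl, and 3 members fell without CRS+ACBP replicate 5. In cholesterol synthesis and uptake 2 of 27 genes rose, beside 1.89% of all genes tested, none fell, and the median was 0.57. These were Cyp51, lanosterol demethylase, from 54.4, 91.9, 111, 103 and 30.2 CPM to 232, 178, 178, 202 and 142 CPM, and Mvk, mevalonate kinase, 1.75-fold. None was called without PBS replicate 1, 4 or 5 or CRS+ACBP replicate 1, 2 or 3, and 1 was without CRS+ACBP replicate 4. Of 25 apolipoprotein and lipoprotein assembly genes 3 rose: Apoa4 (2.02-fold), Apom, the carrier of sphingosine-1-phosphate (2.23-fold), and Apon (1.58-fold). None was called without PBS replicate 4 or 5, and 1 was without PBS replicate 1 or CRS+ACBP replicate 2.

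**Figure D3:**
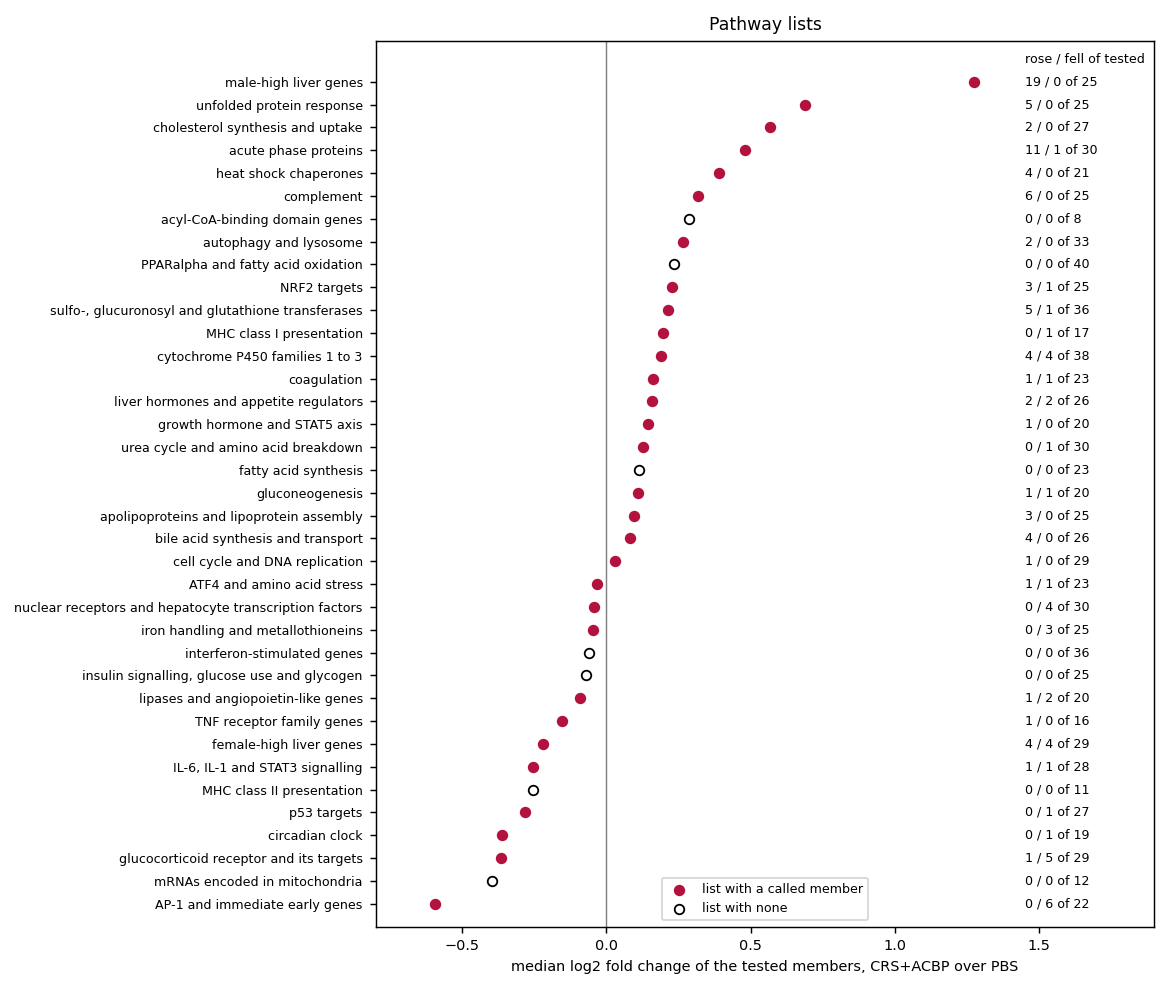
Median log2 fold change (CRS+ACBP over PBS) of each of 37 pathway lists, with the numbers of members that rose and fell at adjusted p under 0.05 beside the number tested. The male-high list stands highest at 1.27 with 19 of 25 members up, and the AP-1 and immediate early list stands lowest at -0.59 with 6 of 22 members down.

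Chaperones of the endoplasmic reticulum rose in part. In the unfolded protein response list 5 of 25 rose, none fell, 24 had positive log2 fold changes and the median was 0.69. Sdf2l1 rose from 8.27 to 16.7 CPM to 80.3, 21.04, 30.8, 19.4 and 40.0 CPM, and Pdia6, a disulfide isomerase, from 64.3 to 103 CPM to 316, 150, 174, 134 and 182 CPM. Hspa5, the master chaperone BiP, was 122 to 214 CPM in PBS and 900, 238, 404, 245 and 356 CPM in CRS+ACBP (log2 1.38 ± 0.33, adjusted p = 0.0416). Dnajb11 and Pdia3 rose 1.83-fold and 1.70-fold. Replicate 1, the treated library high in Arntl, was the highest treated library for 21 of the 25 genes. The count moved widely: it was 0 without PBS replicate 1, 4 or 5, 1 without PBS replicate 3, 2 without CRS+ACBP replicate 3, 3 without CRS+ACBP replicate 1, 0 without both libraries high in Arntl, 11 without CRS+ACBP replicate 5 and 12 without CRS+ACBP replicate 4. Of 21 heat shock chaperones 4 rose, with a median of 0.39. Hspd1 and Hspe1, the mitochondrial chaperonin pair that share a promoter and overlap, rose 1.60-fold and 1.52-fold, Hspa4l rose 1.78-fold, and Chordc1 rose 1.54-fold. None was called without PBS replicate 3, 4 or 5 or CRS+ACBP replicate 1 or 3, and none without the libraries rich in muscle transcripts. 1 was without PBS replicate 2 or CRS+ACBP replicate 4, 2 were without PBS replicate 1 or CRS+ACBP replicate 2, and 7 were without CRS+ACBP replicate 5.

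Immediate early genes are transcribed within minutes of a stimulus. Of 22 tested 6 fell, none rose and 16 did not pass, and the median log2 fold change was -0.59. Dusp1, a phosphatase of MAP kinases induced by glucocorticoids and by stress, was 165, 184, 16.7, 204 and 321 CPM in PBS and 17.6, 10.2, 32.5, 34.7 and 13.9 CPM in CRS+ACBP (log2 -3.03 ± 0.59, adjusted p = 0.0228). Nr4a1, an orphan nuclear receptor, was 19.7, 22.6, 2.03, 31.4 and 9.08 CPM in PBS and 1.87 to 3.45 CPM in CRS+ACBP. For both genes PBS replicate 3 was as low as the treated libraries and the other 4 controls were above all of them. Zfp36, which destabilises cytokine mRNAs, fell from 168 to 284 CPM to 100 to 130 CPM without overlap. Gadd45b fell 2.66-fold, and Dusp6 and Klf10 fell 2.16-fold each. Without CRS+ACBP replicate 2 none of the list was called, without PBS replicate 1 or the libraries rich in muscle transcripts 2 were, and without PBS replicate 4, PBS replicate 5 or CRS+ACBP replicate 1 only 1 was, as without both libraries high in Arntl.

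Of 29 glucocorticoid receptor targets 5 fell, 1 rose (Lcn2) and 23 did not pass, and the median was -0.37. Besides Dusp1 those that fell were Sgk1, a serum- and glucocorticoid-inducible kinase (2.63-fold lower), Tat, tyrosine aminotransferase (1512 ± 474 CPM in PBS, 766 ± 158 CPM in CRS+ACBP), Errfi1, a feedback inhibitor of the epidermal growth factor receptor (1.75-fold lower), and Serpina6. Serpina6 encodes corticosteroid-binding globulin, the plasma carrier of corticosterone, and fell from 325, 526, 637, 617 and 632 CPM to 222, 301, 349, 299 and 259 CPM. Per1, a clock gene that glucocorticoids induce, was 77.8 to 142 CPM in PBS, 46.0 to 62.7 CPM in 4 treated libraries and 11.5 CPM in CRS+ACBP replicate 1, and did not pass the test (adjusted p = 0.0541). The count of 5 that fell was 0 without PBS replicate 5 or CRS+ACBP replicate 2, 1 without PBS replicate 4, 2 without PBS replicate 1 or CRS+ACBP replicate 1, 3 without PBS replicate 2 or CRS+ACBP replicate 3 or 4, and 2 without both libraries high in Arntl. The labile metabolic genes Sik1, a kinase induced by cAMP, Igfbp1, Pck1 and G6pc spread widely within PBS. Sik1 was 96.7, 74.7, 16.2, 61.3 and 78.9 CPM in PBS and 10.99 to 25.3 CPM in CRS+ACBP (log2 -1.92 ± 0.37, adjusted p = 0.0227). G6pc, glucose-6-phosphatase, was 848, 302, 44.8, 309 and 717 CPM in PBS and 81.0 to 205 CPM in CRS+ACBP and did not pass (adjusted p = 0.0861), nor did Igfbp1 (adjusted p = 0.0592) or Pck1 (adjusted p = 0.137).

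Among nuclear receptors and hepatocyte transcription factors 4 of 30 fell and none rose. Nr1i3, the constitutive androstane receptor that governs drug-metabolising enzymes, was 1326, 1363, 1645, 1517 and 1413 CPM in PBS and 440, 706, 757, 815 and 1008 CPM in CRS+ACBP (log2 -0.96 ± 0.19, adjusted p = 0.0221). Ahr, the dioxin receptor, fell 1.60-fold, and Esrra, an activator of mitochondrial genes, fell 1.52-fold. No member was called without PBS replicate 4 or 5, 1 was without PBS replicate 1 or CRS+ACBP replicate 1 or 2, and 2 were without PBS replicate 3 or CRS+ACBP replicate 4. Of 38 P450 genes of families 1 to 3, 4 rose and 4 fell. Among them Cyp2a22 (chr7:26931631-26939384, minus strand) had the largest fall, from 524, 384, 534, 442 and 490 CPM to 24.4, 101, 126, 117 and 91.9 CPM (log2 -2.37 ± 0.34, adjusted p = 0.00690), and kept its call in each of 21 alternatives. It overlaps the pseudogene Cyp2a21-ps on the opposite strand and has near-identical relatives. Cyp3a25 fell 1.53-fold. Without CRS+ACBP replicate 5, 8 P450 genes rose, 2 rose without PBS replicate 1, 4 or 5, and 1 fell without PBS replicate 1, 3, 4 or 5 or CRS+ACBP replicate 1, 2 or 3. Of 36 conjugating transferases 5 rose and 1 fell. Sult2a8, a bile acid sulfotransferase, rose 1.63-fold, and Ugt2b38 rose from 0 to 0.371 CPM to 0.684 to 5.46 CPM. Ugt2b38 passed the filter on low counts only through its treated libraries, which fixed its positive sign. Ugt1a6a, which shares exons with its Ugt1a relatives, fell from 37.3 to 42.1 CPM to 12.3 to 30.5 CPM. No transferase gene rose without PBS replicate 1 or 4, 1 rose without PBS replicate 5 or CRS+ACBP replicate 1 or 2, 2 rose without PBS replicate 3 and 3 without CRS+ACBP replicate 3. Of 25 tested genes of the NRF2 list 1 fell, 3 rose and 21 did not pass. Nfe2l2, which encodes NRF2, fell 1.72-fold, and the antioxidant genes Gsr, Srxn1 and Prdx1 rose 1.46-fold, 1.55-fold and 1.75-fold. No NRF2 list gene was called without PBS replicate 1 or 5 or CRS+ACBP replicate 1 or 2. None rose without PBS replicate 4 or CRS+ACBP replicate 3 or 4, 1 rose without PBS replicate 2 or 3, and 7 rose without CRS+ACBP replicate 5.

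**Figure D4:**
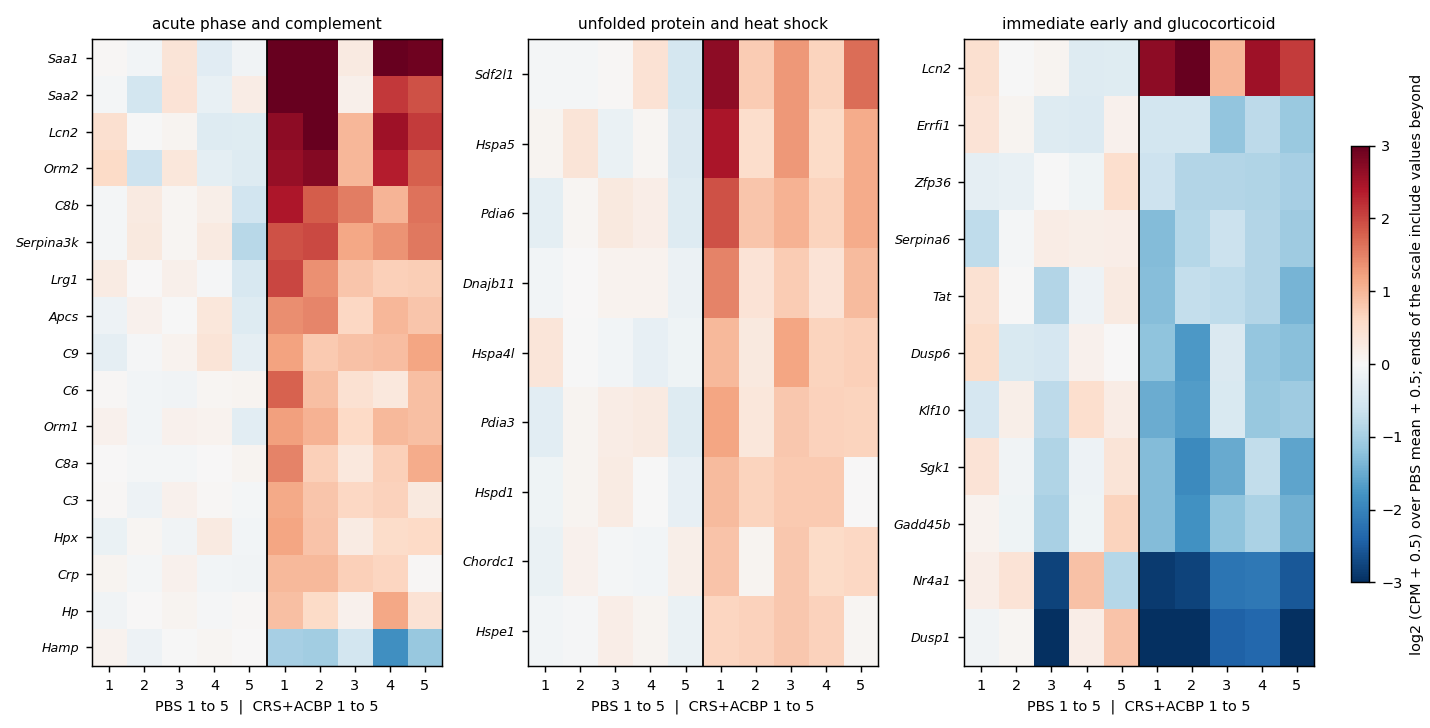
Level of called members of 3 groups of genes in each of the 10 libraries, as log2 of CPM plus 0.5 over the PBS mean plus 0.5, with colours ending at the limits of the scale for values beyond them. CRS+ACBP replicate 3 is the palest treated column for Saa1 and Saa2, and PBS replicate 3 is as dark as the treated columns for Dusp1 and Nr4a1.

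Iron, lipid and hormone genes showed a few large changes. In the iron list 3 of 25 fell and none rose: both hepcidin genes and Smad7, which damps the BMP signal that induces hepcidin. Hamp (chr7:30942368-30944032, minus strand), the main hepcidin gene, whose peptide closes the iron exporter ferroportin, stood at 2266, 1893, 2108, 2199 and 2131 CPM in PBS and at 1066, 1025, 1441, 591 and 970 CPM in CRS+ACBP (log2 -1.06 ± 0.19, adjusted p = 0.0178). Hamp was not called without PBS replicate 5 (adjusted p = 0.0581) or CRS+ACBP replicate 2 (adjusted p = 0.0514), and the list's count was 1 in both fits. Smad7 fell 1.86-fold. Angptl8, a feeding-induced inhibitor of lipoprotein lipase, was 221, 431, 233, 1001 and 584 CPM in PBS and 99.5, 91.4, 115, 130 and 108 CPM in CRS+ACBP. The treated libraries were close together while the controls spanned more than 4-fold, and the log2 fold change was -2.18 ± 0.36 (adjusted p = 0.0146). Lipg, endothelial lipase, fell 3.86-fold with overlapping groups, and Ces3a, a carboxylesterase of lipid droplets, rose 1.95-fold. Vldlr, a receptor for triglyceride-rich lipoproteins, fell 2.45-fold. Enho, which encodes the peptide adropin, rose from 17.2, 30.004, 20.8, 32.7 and 30.2 CPM to 61.2, 68.3, 43.6, 72.5 and 52.8 CPM (log2 1.19 ± 0.20, adjusted p = 0.0140), and is also on the male-high list. The hepatokines of food restriction and sickness did not pass the test: Fgf21 was 1.15 to 5.26 CPM in PBS and 1.09 to 10.3 CPM in CRS+ACBP (adjusted p = 0.478), and Gdf15 was 9.53 to 29.1 CPM and 7.83 to 16.02 CPM (adjusted p = 0.251).

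The smallest p of all genes tested belonged to an immune receptor gene. Tnfrsf14 (chr4:154921933-154928563, mm10, minus strand), the herpesvirus entry mediator and receptor of LIGHT and BTLA, was 0.486, 0.524, 0.738, 0.248 and 0.249 CPM in PBS and 6.16, 8.61, 6.96, 10.53 and 6.61 CPM in CRS+ACBP. The log2 fold change was 4.09 ± 0.32 (adjusted p = 0.000195), and the call was kept in each of 21 alternatives. Tnfrsf14 passed the filter on low counts only through its treated libraries, which fixed its positive sign. It was the 1 called gene of 16 tested in the list of TNF receptors and their partners. Of all genes tested 4.03% were called, so this count says little about the list. Serpina12 (vaspin), a serpin secreted by fat and liver, rose from 2.55 to 9.04 CPM to 11.6 to 33.1 CPM. Among the falls, Adam11 went from 29.4 to 72.2 CPM to 7.63 to 20.1 CPM, Osbpl5, an oxysterol-binding protein relative, fell 3.13-fold, and the kinase genes Plk3, Map3k6 and Pim3 fell 2.98-fold, 2.82-fold and 2.63-fold. Cyp2j9, an epoxygenase, fell 2.63-fold, Spaca6 2.69-fold and the organic anion carrier gene Slc22a29 2.66-fold, each with groups that did not overlap. Plk3 overlaps Tctex1d4 on the other strand, and Hsd3b5, Angptl8, Hamp, Hamp2, Dusp1, Pdia6, Zfp36, Enho, Nr1i3, Esrra and Apoa4 also overlap a tested gene on the opposite strand. The strand setting of the counting was not given in the sources used here, so reads of these pairs may not have been separated.

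Some lists had no called member. None of 40 genes of PPAR-alpha and fatty acid oxidation, 23 of fatty acid synthesis, 25 of insulin signalling and glucose use, 36 interferon-stimulated genes, 11 of MHC class II or 8 with an acyl-CoA-binding domain or its partners passed the test. The medians of the fatty acid oxidation and acyl-CoA-binding lists were 0.24 and 0.29. In the fatty acid oxidation list 4 genes rose without CRS+ACBP replicate 5, and none without any other single library. Without CRS+ACBP replicate 5, 2 fatty acid synthesis genes, 2 insulin signalling genes and 1 acyl-CoA-binding gene also rose, and 2 interferon-stimulated genes rose and 1 fell. Without CRS+ACBP replicate 4, 1 fatty acid synthesis gene rose, and without CRS+ACBP replicate 1, 1 insulin signalling gene fell. No MHC class II gene was called without any single library. All 12 tested mRNAs of the mitochondrial genome had negative log2 fold changes with a median of -0.39, and none passed, but 6 fell without CRS+ACBP replicate 5. Mitochondrial transcripts took 11.5% ± 1.85 of reads on genes in PBS and 8.16% ± 4.17 in CRS+ACBP (SD, n = 5 each), a difference of -3.31 percentage points (2-sided exact permutation p = 0.143, where 0.007937 is the smallest the design allows). Without CRS+ACBP replicate 5 the difference was -5.10 points (exact permutation p = 0.007937).

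Markers of other liver cells were also set side by side, since a bulk sample cannot tell fewer cells of a type from less RNA per cell. The 16 sinusoidal endothelial markers summed to 432 to 528 CPM in PBS and 335 to 433 CPM in CRS+ACBP. 14 of the 16 had negative log2 fold changes and none passed, among them Kdr, the receptor of vascular endothelial growth factor (20.6 to 28.1 CPM and 15.2 to 18.4 CPM, adjusted p = 0.0550). The groups did not overlap for 4 of the 16, all lower in CRS+ACBP. Over all genes tested the groups did not overlap for 7.37%, with 3.87% lower. In the fits without 1 library, 4 of the 16 fell without CRS+ACBP replicate 5 and 1 without PBS replicate 2. All 11 tested B and plasma cell markers and all 12 T and NK cell markers had negative values and none passed. Of all genes tested 48.04% had positive values. Summed levels were 37.6 to 51.2 CPM and 27.4 to 40.8 CPM for the first list and 21.8 to 25.5 CPM and 12.4 to 25.8 CPM for the second. Several members rest on few reads, such as Cd3d with means of 0.971 CPM in PBS and 0.932 CPM in CRS+ACBP. Of 17 stellate cell markers 14 were also negative (median -0.29), and of 5 neutrophil and monocyte markers 3 were positive (median 0.43), with none called in either list. Without CRS+ACBP replicate 5, 1 B and plasma cell marker and 1 Kupffer cell marker fell, and without CRS+ACBP replicate 4, 1 T and NK cell marker did. Kupffer cell and macrophage markers summed to 380 to 465 CPM in PBS and 302 to 552 CPM in CRS+ACBP. Within hepatocytes, the periportal marker Cdh1 rose 1.99-fold, with 55.9 CPM in CRS+ACBP replicate 4 and 27.7 to 34.2 CPM in the others. The pericentral Wnt regulator Rnf43 fell 1.72-fold. They were the only called markers of 12 and 16 tested, and the 2 lists did not move in opposite directions. Positive values were held by 8 periportal and 9 pericentral markers, with medians of 0.16 and 0.10. The part of these cell markers in the results was not tested.

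Each treatment alone was tested against the same 5 PBS libraries, so the 3 comparisons share their controls and only their own values are given. CRS alone changed 265 of 14867 genes (1.78%), 143 up (0.962%) and 122 down (0.821%), and ACBP alone changed none of 14831 (0%) by edgeR, with 1475 (9.95%) at an unadjusted p under 0.05. Of the male-high genes 9 of 24 rose under CRS alone, with a median log2 fold change of 0.88 against -0.02 over all genes. Under ACBP alone no gene of any list could be counted, since none was called. The male-high median there was 0.59 over 21 tested members, against -0.003 over all genes. Of the acute phase genes 12 of 30 rose and 1 fell under CRS alone, with a median of 0.68. Of the complement genes 6 of 25 rose (median 0.30), and of the immediate early genes 4 of 22 fell (median -0.62). The medians of these 3 lists under ACBP alone were 0.36, 0.24 and 0.20. For Slco1a1 the log2 fold change over PBS was 3.28 ± 0.31 with both treatments and 2.43 ± 0.40 with CRS (edgeR, adjusted p = 0.00933). With ACBP it was 1.22 ± 0.38 (edgeR, adjusted p = 0.399). For Cyp8b1 the 3 values were 2.40 ± 0.24, 2.195 ± 0.27 and 1.11 ± 0.36, for Cyp2a22 -2.37 ± 0.34, -1.79 ± 0.25 and -0.85 ± 0.21, and for Angptl8 -2.18 ± 0.36, -2.57 ± 0.39 and -1.14 ± 0.42. Tnfrsf14 was 8.23 to 11.8 CPM under CRS and 7.94, 3.37, 0.239, 8.44 and 3.26 CPM under ACBP, on the scale of all 30 libraries. It was at or above 3.26 CPM in 4 ACBP libraries and at the PBS level in the other.

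**Figure D5:**
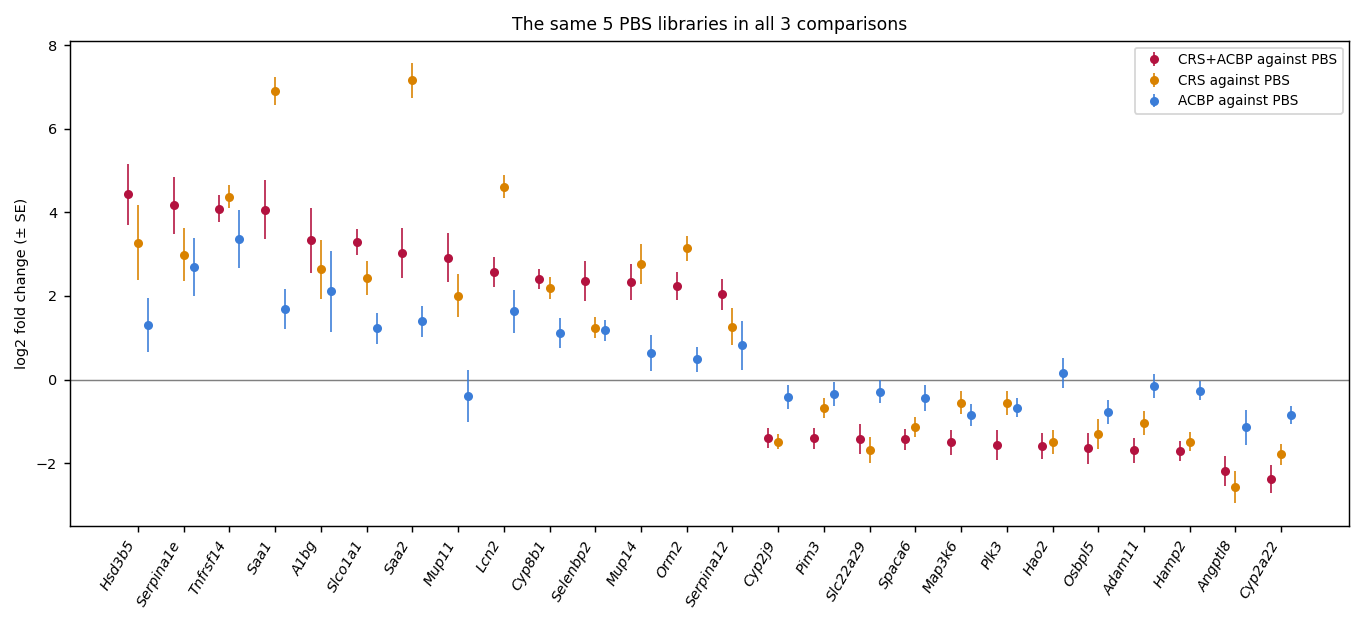
Log2 fold change over the same 5 PBS libraries, with standard errors, for CRS+ACBP, CRS alone and ACBP alone, for the 24 genes with the largest named changes and for Saa1 and Saa2. Saa1 and Saa2 reach 6.90 and 7.16 under CRS alone and 4.07 and 3.03 under CRS+ACBP.

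Tested directly, CRS+ACBP differed from CRS alone at 0 of 14880 genes by edgeR (0%), with 834 (5.6%) at an unadjusted p under 0.05, 11 by DESeq2 and 0 by limma voom. It differed from ACBP alone at 0 of 14830 (0%), with 1628 (11%) at an unadjusted p under 0.05, 72 by DESeq2 and 0 by limma voom. In the acute phase list none of 30 tested genes was called against CRS by edgeR. The list's median log2 difference was -0.11, against 0.01 over all genes, and single members had larger gaps. Saa2 stood at 970, 603, 1344, 394 and 1574 CPM under CRS on the scale of all 30 libraries and at 126, 90.3, 7.56, 30.6 and 26.7 CPM under CRS+ACBP, without overlap. The difference was -4.13 ± 0.66 on the log2 scale (95% interval -5.42 to -2.84) with an unadjusted p of 2.68e-05 and an adjusted p of 0.296. Lcn2 was 172 to 416 CPM under CRS and 21.2 to 110 CPM under CRS+ACBP, a log2 difference of -2.04 ± 0.36 (adjusted p = 0.303). Saa1 was 635 to 2048 CPM and 13.4 to 486 CPM (log2 -2.83 ± 0.69, adjusted p = 0.854). These differences did not pass edgeR's test across all genes; DESeq2 called Saa2 and Lcn2 (adjusted p = 3.70e-06 and 5.17e-06). Sik1 was 29.98 to 57.9 CPM under CRS and 11.3 to 25.4 CPM under CRS+ACBP (log2 -1.28 ± 0.23, adjusted p = 0.303), and Orm3 was 24.7 to 54.4 CPM and 14.9 to 19.7 CPM. G0s2, an inhibitor of adipose triglyceride lipase, was higher with ACBP, at 54.6 to 86.4 CPM against 26.9 to 48.3 CPM (log2 0.90 ± 0.18, adjusted p = 0.622). Against ACBP alone, the smallest p belonged to Slco1a1 (11.1 to 54.2 CPM under ACBP, 76.5 to 169 CPM under CRS+ACBP, log2 2.05 ± 0.35, adjusted p = 0.207).

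The interaction, which asks whether both treatments together differ from the sum of each alone on the log2 scale, was called for 1 of 15762 genes (0.00634%), with 655 (4.16%) at an unadjusted p under 0.05. The gene was Saa2: its PBS and ACBP libraries were at 4.40 to 9.16 CPM and 6.49 to 36.5 CPM, and the interaction was -5.52 ± 0.82 (adjusted p = 0.0171). It was called in 21 of 29 alternatives, with values from -6.06 to -4.45 and adjusted p from 5.872e-08 to 0.836. The call was lost without PBS replicate 1, 2, 4 or 5, without CRS+ACBP replicate 4 or 5, without the libraries rich in muscle transcripts and in a fit of all 30 libraries. Lcn2 (-3.68 ± 0.69), Tnfrsf14 (-3.65 ± 0.71) and Saa1 (-4.52 ± 0.92) had the next smallest p-values and did not pass (adjusted p = 0.229, 0.243 and 0.297).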

How the data were processed

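Liver RNA in 30 libraries was sequenced from 1.5 µg of total RNA as strand-specific mRNA libraries, per the labels' protocols. The deposited values are raw read counts per gene, made by the authors with HISAT2 2.2.1 and HTSeq 2.0.3 on mm10, per the submitters' processing notes; the sources read here do not state the annotation release or strand setting. The table lists 48440 genes, of which 99.2% matched GENCODE vM21, used for symbols and positions. Its 5 summary lines were left out of library sizes; a median of 43.3% of reads fell on no feature and 11.6% were not unique. No 2 libraries of a group agreed within sampling noise.

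CRS+ACBP and PBS (5 libraries each) were compared with edgeR 4.0.16 in R 4.3.3 (TMM scaling, filterByExpr, quasi-likelihood test) on these 10 libraries alone, with Benjamini-Hochberg adjustment over all genes tested and a threshold of 0.05. The comparisons with CRS and ACBP used 10 libraries each and the interaction 20. CPM are TMM-scaled over the 10 libraries, or over all 30 where stated. Standard errors are the log2 fold change over the root of F. The 95% interval given for Saa2 is 1.96 standard errors either side. It makes no allowance for the few libraries and is narrower than one matched to the F test. The script was tested on simulated data. Alternatives were RLE scaling, other filters, a minimum fold of 1.5, DESeq2 1.42.0, limma 3.58.1 with voom, larger fits, a muscle covariate, and leaving out libraries; the fit without both libraries high in Arntl was added after seeing the data. The share of mitochondrial reads was compared with an exact permutation test (Python 3.11.15, scipy 1.17.1).

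Named genes were Dbi, the 12 largest rises and 12 largest falls among called genes (mean of at least 5 CPM in 1 group, groups not overlapping, no provisional symbol), up to 3 members with the smallest p in each list with 3 or more called members, and the 5 smallest p in each other comparison. Other genes given were chosen after their values were seen. The groups and the 53 gene lists were chosen with earlier results of these data known, and no list was given a test of its own. The cisplatin groups entered only the fits of all 30 libraries. Some called genes are not reported here.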

Additional observations from a re-analysis of the deposited data

Results flagged for a closer look

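In 23 of 304 groups of 5 values 1 library lay far from the other 4 (Dixon's test at the 95% level), where chance gives about 1 in 20 groups, or 15.2. The values follow in CPM, and no explanation of them was tested.

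In PBS, A1bg reached 129.4 in replicate 4, Ahr 52.74 in replicate 4, Mup11 21.67, Mup1 3.496 and Map3k6 8.448 in replicate 2, and Arntl 5.159 in replicate 1. PBS replicate 2 also stood apart in the summed markers of skeletal muscle (12580) and of stellate cells (851.3). In CRS+ACBP, replicate 1 stood apart in Arntl (20.52), Pdia6 (315.8), Hspa5 (900.4) and, at the low end, Cux2 (17.99). Replicate 5 stood apart in Mup11 (154.9), Selenbp2 (182) and, at the low end, Hspe1 (120.2) and Bnip3l (52.71). Replicate 4 had the highest Cdh1 (55.93) and Cyp3a25 (682.8), and replicate 3 the highest summed mesothelium markers (9.93). In the other groups, on the scale of all 30 libraries, ACBP replicate 2 stood apart in Lcn2 (88.41) and Saa1 (95.02), ACBP replicate 1 in G0s2 (146.1) and CRS replicate 3 in Mup10 (32.04).

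The effect of restraint on Saa2 differed between mice with and without ACBP by the interaction test, at -5.523 on the log2 scale (edgeR, adjusted p = 0.0171, against 0.0510 to 0.836 in the 8 of 29 alternatives without a call).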

How the results depend on the processing

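The 598 genes changed between CRS+ACBP and PBS became 10 with a fold of at least 1.5 tested, 1703 with DESeq2, 1898 with limma voom, 69 with all 30 libraries in 1 fit, 1208 with the 20 libraries without cisplatin, and 181 (118 higher, 63 lower) without the libraries rich in muscle transcripts. They were 74 without both libraries high in Arntl, a setting chosen after seeing the data, and 57 (without PBS replicate 5) to 1589 (without CRS+ACBP replicate 5) without 1 library. RLE scaling, the other filters on low counts and the muscle covariate kept the count within 1.5 times. The count of 0 against CRS became 4 without a filter, 11 with DESeq2, 1 in the 20-library fit, and 0 to 1 without 1 library (1 without CRS replicate 3). The count of 0 against ACBP became 72 with DESeq2, 1 without the muscle-rich libraries, 2 with the muscle covariate, and 0 to 4 without 1 library (4 without CRS+ACBP replicate 5). The interaction's 1 gene became 2 without a filter, 6 with DESeq2, 0 with all 30 libraries, 0 without the muscle-rich libraries, and 0 to 2 without 1 library. The difference in mitochondrial share ranged from -5.103 (without CRS+ACBP replicate 5) to -2.451 points (without CRS+ACBP replicate 4). Of the 107 called genes followed, 3 were called in each of 21 alternatives and 20 without each single library. None changed direction, which says little, because they were chosen as called genes and the fits share most of their libraries. 2 genes that were not called did change direction: Socs2 was -0.0132 with limma voom, and Arntl ranged from -0.88 without CRS+ACBP replicate 1 to 2.55 without PBS replicate 1. The cause of these changes was not tested. No paired analysis was possible because the labels give no replicate numbers shared between groups. At 15147974 to 17245912 reads on genes, genes below about 1 CPM rest on few reads in each library.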

Other observations

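Srd5a1, which encodes a steroid 5-alpha-reductase that reduces testosterone and corticosterone and is in none of the gene lists, had the second smallest p of the genes tested. It stood at 17.2, 17.6, 20.5, 21.5 and 11.6 CPM in PBS and at 62.6, 79.04, 63.5, 54.8 and 56.7 CPM in CRS+ACBP, so that every treated library was more than 2 times the highest control. The log2 fold change was 1.84 ± 0.17 (edgeR, adjusted p = 0.000651), called in 20 of 21 alternatives with adjusted p from 3.425e-21 to 0.0617. Against the same PBS libraries CRS alone gave 1.36 ± 0.19 (adjusted p = 0.00401) and ACBP alone 0.84 ± 0.23 (adjusted p = 0.357).

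Single members of other lists also passed the test. Of all genes tested 1.89% rose and 2.14% fell, so counts this small say little about the lists. Of 33 autophagy and lysosome genes 2 rose: Ulk2, an autophagy-initiating kinase, 1.46-fold, and Bnip3l, a receptor for removal of mitochondria, from 35.5 to 46.8 CPM to 52.7 to 63.5 CPM. None of this list rose without PBS replicate 1, 4 or 5 or CRS+ACBP replicate 1, 2 or 3, 1 rose and 1 fell without CRS+ACBP replicate 4, and 9 rose without CRS+ACBP replicate 5. In gluconeogenesis Pcx, pyruvate carboxylase, rose 1.53-fold and Crtc2, a coactivator of CREB, fell 1.57-fold, of 20 tested. Of 23 tested coagulation genes 1 rose and 1 fell. The one that rose was Cpb2, a plasma carboxypeptidase that slows fibrinolysis (1.63-fold), and the rises numbered 0 to 4 without 1 library, with 4 without CRS+ACBP replicate 5. Atf5, a stress-induced transcription factor, rose from 145 to 204 CPM to 228 to 605 CPM, 1 rise of 23 genes in the ATF4 list. E2f1 was the 1 called gene of 29 in the cell cycle list, rising 2.13-fold from 1.73 CPM. No cell cycle gene was called without any 1 PBS library or without CRS+ACBP replicate 1, 2 or 4. Each of these 7 genes was no longer called without 6 to 8 of the 10 single libraries.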
